A study of Mus musculus and Acomys cahirinus with 16 samples.

Results

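Serpins are a superfamily of proteins that mostly inhibit proteases, and the Serpin genes described here are all genes whose symbol begins with Serpin, without the pseudogenes marked -ps. The mouse count table held 65 such genes among 56980, under 64 symbols, since 2 loci carry the symbol Serpina3h. The spiny mouse table held 46 among 19818, all of them under symbols that the mouse table also has. RNA sequencing of whole skin compared mice (Mus musculus) with spiny mice (Acomys cahirinus). Each species had 4 untreated samples and 4 samples of skin given DMBA/TPA, in which DMBA is a mutagenic carcinogen and TPA a phorbol ester that promotes tumours and activates protein kinase C. Strain, sex, age, doses, treatment times and whether a treated sample held a tumour are not given in the sources used here. The design text of the series speaks of irradiated fibroblasts, whereas title and sample labels give skin with and without DMBA/TPA, which is how samples were grouped here. Nothing states that replicates came from separate animals, so p-values measure the spread between these samples, which may be technical.

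An inhibitory serpin presents a reactive loop as bait, and the protease that cuts it is trapped in a covalent complex while the serpin refolds. Clade A serpins are mainly secreted and many circulate in plasma from the liver, whereas clade B serpins lack a classical signal peptide and act largely inside cells, several of them in keratinocytes. Some members do not inhibit proteases at all, among them the collagen chaperone Serpinh1 and the hormone carriers Serpina6 and Serpina7.

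Mouse libraries held 19608787 to 30198281 counts and spiny mouse libraries 21143918 to 30561256, and 3 counts correspond to between 0.102 and 0.158 CPM (counts per 1000000, scaled by TMM factors), a floor that covers counting error only. Basal keratinocyte markers (6 genes listed) summed to between 6946 and 21070 CPM in every sample. Among the mouse libraries, 2 untreated ones stood apart. Untreated replicate 1 had a sum of 930.5 CPM over 15 hepatocyte markers, against 24.9, 49.5 and 207.3 in replicates 2 to 4 and at most 20.6 in treated skin, and Alb stood at 395.6 CPM there. Untreated replicate 2 had 2312 CPM over 6 markers of growing (anagen) hair follicles, against 7.78, 34.8 and 7.88 in the other untreated libraries and between 20760 and 22880 in treated skin. In spiny mouse the same markers ran from 1132 to 11610 CPM in untreated and from 199 to 3399 in treated skin. Skeletal muscle markers were lower in every treated library, with 2231 to 3045 CPM against 9574 to 13930 in mouse and 3210 to 6613 against 9527 to 12140 in spiny mouse. In bulk skin, fewer cells of a type and less RNA per cell cannot be told apart, and the part of these shifts in cell makeup in the Serpin results was not tested.

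How a gene could be counted set which members could be read. Per the file headers, read pairs were counted without the options that keep pairs matching several genes, so bases annotated to more than 1 gene gave no counts. In spiny mouse 16 of 46 members had under 50% of their exonic bases free of another gene, 9 of these had no count in any sample and 0 were tested. The 4 genes Serpinb3a, Serpinb3b, Serpinb3c and Serpinb3d are annotated on top of one another on scaffold_5 and keep 2, 0, 10 and 4 bases of their own, and their 0 counts in all 8 spiny mouse samples therefore give no level. The same holds for Serpina1b, Serpina1e, Serpinb9e and Serpinb9f, with 0 bases of their own each, and Serpina1d, with 5 such bases, had 2 counts. Spiny mouse Serpinb1a, Serpinb1b and Serpinb1c keep 30.2%, 10.5% and 4.73% of their bases and had 39, 39 and 0 counts. In mouse 63 of 65 members had at least 50% of their bases to themselves. The exceptions were 1 of the Serpina3h loci, which has none and no counts, and Serpina3g. Members of several mouse families are near copies, and pairs that map to several places were not counted either. Coding sequences were 86.2% to 93.1% identical among Serpinb3a to Serpinb3d, 96.3% to 98.5% among Serpina1a to Serpina1e, 67.6% to 86.5% among the Serpinb6 genes and up to 91.0% among the Serpina3 genes compared, so counts within these families are uncertain.

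After the filter on low counts, 42 of 65 members were tested in mouse, 21 of 46 in spiny mouse and 19 in both. No count was seen in any sample for 7 mouse and 12 spiny mouse members. In mouse skin 10 members were higher after DMBA/TPA, 23.8% of those tested against 25.9% of all genes, and 16 were lower, 38.1% against 35.3% of all genes (edgeR quasi-likelihood test, Benjamini-Hochberg adjusted p under 0.05). In spiny mouse 3 members were higher, 14.3% against 28.2% of all genes, and 6 lower, 28.6% against 26.9% of all genes. Treated and untreated libraries did not overlap for 23 of the 42 mouse members (54.8%, against 58.6% of all genes) and for 8 of the 21 spiny mouse members (38.1%, against 50.9%). The median log2 fold change was -0.46 over the mouse members and -0.15 over all mouse genes, and -0.18 and -0.01 in spiny mouse. The treatment effect differed between the species for 10 of 19 members, 4 with a log2 value larger in spiny mouse (21.1%, against 21.4% of all genes) and 6 with a smaller one (31.6%, against 24.7%). With upper-quartile factors in place of TMM, 8 mouse members were higher and 20 lower. Of all mouse genes called, 30.5% were then higher, against 42.4% with TMM. In spiny mouse 5 were higher and 6 lower with the DESeq2 test, and 6 higher and 6 lower without the filter on low counts. Of all spiny mouse genes called, 50.3% and 52.0% were then higher, against 51.1% in the main fit. Without untreated replicate 1, 24 mouse members were called (23 of them among the 26), without untreated replicate 2, 32 (26 of them shared), and without both, an alternative chosen after seeing the data, 27 (22 shared). Calls over all mouse genes moved as well, from 12085 of 19740 in the main fit. They were 11746 of 20341 without replicate 1, 13944 of 20009 without replicate 2 and 13315 of 20609 without both.

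Maspin (Serpinb5) headed the family in every group when levels were set per length. It stood at 151 ± 51.4 and 217.5 ± 7.86 CPM per kb in untreated and treated mouse skin, and at 109 ± 12.1 and 122 ± 13.1 in spiny mouse skin (SD, n = 4). In both untreated groups the next genes lay within the SDs, namely Serping1 at 93.4 ± 37.6 CPM per kb in mouse and Serpinf1 at 94.4 ± 8.59 in spiny mouse. Lengths here include bases shared with another gene, which gave no counts, so members with such bases are understated. Serpinb6a, with 70.7% of its bases to itself, stood at 74.5 ± 16.6 CPM per kb in untreated mouse skin. Its place after Serpinb5 is therefore uncertain. In both treated groups Serpinb5 lay above the next gene beyond the SDs. That gene was Serpinh1, at 102 ± 9.03 and 92.1 ± 13.1 CPM per kb. Its own place is uncertain, since the gene after it lay within the SDs. This was Serpinb2 at 81.8 ± 14.4 CPM per kb in mouse and Serping1 at 71.4 ± 19.7 in spiny mouse. In treated mouse skin Serpinb3a stood at 63.3 ± 20.8 CPM per kb, within the SDs of its neighbours Serpina3n and Serping1, and had been at 0.248 ± 0.175 in untreated skin. Summed over members, the level was 940.5 and 904.8 CPM per kb in untreated and treated mouse skin and 720.5 and 586.5 in spiny mouse.

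Clade B holds a cluster of 12 genes on mouse chromosome 1, where 5 members were higher, 2 lower, 4 tested without a call and Serpinb3c not tested, beside 25.9% higher and 35.3% lower among all genes. Serpinb3a (ENSMUSG00000044594, chromosome 1, 106973317 to 106980033, minus strand, build GRCm39 as for all mouse genes here) is a mouse relative of the human squamous cell carcinoma antigens, which inhibit cysteine and serine proteases. In untreated mouse skin it stood at 0.733, 0.0439, 0.476 and 0.364 CPM in replicates 1 to 4, and in treated skin at 135, 106, 116.5 and 55.5 CPM. All 4 treated libraries lay far above the untreated ones, with the lowest treated value in replicate 4. The log2 fold change was 7.95 (edgeR adjusted p 6.86e-06, SE 0.498).

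Its neighbours Serpinb3b and Serpinb3d moved the same way. Serpinb3b (chromosome 1, 107081670 to 107206091, minus strand) went from 18.1, 7.98, 13.3 and 13.9 to 87.0, 76.7, 75.2 and 54.8 CPM, a log2 fold change of 2.46 (edgeR adjusted p 5.03e-05, SE 0.241). The groups did not overlap, and replicate 4 was again the lowest treated library. Serpinb3d (chromosome 1, 107005897 to 107011236, minus strand) had 1 count in all untreated libraries together and 104 counts in the treated ones, a ratio of 104.0 (95% exact interval 18.3 to 4160, counting error only). Treated libraries held 1.21, 0.967, 1.35 and 0.817 CPM, and edgeR called the gene higher (adjusted p 6.12e-05). Its coding sequence is 89.4% identical to that of Serpinb3a, which had 9685 counts in the treated libraries. The part of misassigned Serpinb3a pairs in the Serpinb3d counts was not tested. Serpinb3c stayed near the floor at 0.0512 ± 0.0637 CPM without and 0.1715 ± 0.108 CPM with treatment (SD, n = 4) and was not tested.

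Serpinb12 (ENSMUSG00000059956, chromosome 1, 106862179 to 106884810, plus strand), an epithelial inhibitor of trypsin-like proteases, went from 20.6, 4.69, 18.7 and 13.7 CPM to 118, 126, 119 and 92.96 CPM in mouse. The groups were well apart, with untreated replicate 2 the lowest. Its log2 fold change was 2.98 (edgeR adjusted p 0.000212, SE 0.384). In spiny mouse (scaffold_5) the gene went the other way in level, from 27.8, 16.3, 23.1 and 24.4 to 3.23, 16.5, 15.96 and 5.12 CPM, without a call, and with a log2 fold change of -1.16 (edgeR adjusted p 0.0583, SE 0.463). Treated replicates 1, 3 and 4 lay below all untreated libraries, and treated replicate 2 lay just above untreated replicate 2. Without treated replicate 2 or 3 the fall was called (-1.48 and -1.45, edgeR adjusted p 0.0330 and 0.0349). The difference between the species, spiny mouse minus mouse, was -4.14 (edgeR adjusted p 0.000117, SE 0.646).

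Serpinb13, an inhibitor of lysosomal cathepsins made in stratified epithelia, showed the opposite arrangement, with a call in spiny mouse and none in mouse. Spiny mouse libraries held 68.35, 64.6, 50.3 and 53.4 CPM untreated and 1.14, 2.465, 11.1 and 1.78 CPM treated. Every treated library lay below every untreated one, and treated replicate 3 was far above the other treated libraries. The log2 fold change was -3.82 (edgeR adjusted p 0.000786, SE 0.615), and -5.02 without treated replicate 3, where it was called as well. That library also had the highest sum of hair follicle markers among the treated spiny mouse libraries, 3399 CPM. The sums were 232.6, 199.2, 3399 and 1325 CPM in treated and 10740, 11610, 1132 and 3412 CPM in untreated replicates 1 to 4. Untreated replicate 3 thus had less of the markers than treated replicate 3 and more of the gene. The part of hair follicles in the Serpinb13 level was not tested. In mouse the gene stood low, at 2.81, 1.97, 3.19 and 2.55 CPM untreated and 2.57, 2.46, 1.96 and 3.38 CPM treated, with overlapping groups and a log2 fold change of -0.02 (edgeR adjusted p 0.942, SE 0.2400). The difference between the species was -3.79 (edgeR adjusted p 0.000476, SE 0.705).

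Serpinb11 also parted the species. This clade B gene, whose protein in mouse inhibits trypsin-like proteases, had 28.99, 29.7, 31.9 and 31.9 CPM in untreated and 47.04, 42.7, 41.65 and 35.9 CPM in treated mouse skin, a small rise with a log2 fold change of 0.45 (edgeR adjusted p 0.0044, SE 0.102). With upper-quartile factors the mouse call was lost (0.24, edgeR adjusted p 0.0592). In spiny mouse it went from 17.2, 12.8, 21.8 and 11.2 to 7.28, 5.54, 8.34 and 6.85 CPM, a log2 fold change of -1.17 (edgeR adjusted p 0.00164, SE 0.216), without overlap in either species. The difference was -1.62 (edgeR adjusted p 8.54e-05, SE 0.244).

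Serpinb7 (megsin), whose human counterpart is mutated in a hereditary thickening of palm and sole skin, fell in both species. In mouse it went from 192, 43.7, 189 and 198 to 28.1, 25.85, 21.9 and 22.9 CPM, a log2 fold change of -2.66 (edgeR adjusted p 0.000593, SE 0.412). Untreated replicate 2 was the lowest untreated library and still above all treated ones. In spiny mouse the libraries held 127, 112, 157 and 136 CPM before and 34.3, 38.95, 26.2 and 21.1 CPM after treatment, a log2 fold change of -2.14 (edgeR adjusted p 3.82e-05, SE 0.189). The species difference was 0.52 (edgeR adjusted p 0.386, SE 0.466) and was not called. It was called at 0.74 without mouse untreated replicate 2 (edgeR adjusted p 0.0129).

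Serpinb10 (bomapin), known from blood cells, fell in mouse from 24.7, 13.8, 30.3 and 22.4 to 9.71, 9.055, 9.06 and 5.68 CPM, a log2 fold change of -1.45 (edgeR adjusted p 0.00111, SE 0.252) with no overlap of groups. Its exons overlap those of the more abundant Serpinb2, and the shared bases gave counts to neither. In spiny mouse Serpinb10 had 16.2, 7.655, 10.99 and 12.9 and 10.9, 10.4, 10.1 and 9.09 CPM in the untreated and treated libraries, which overlapped, and a log2 fold change of -0.24 (edgeR adjusted p 0.333, SE 0.199). The difference was 1.21 (edgeR adjusted p 0.00861, SE 0.339).

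Serpinb5, Serpinb2 and Serpinb8 were not called in either species. Serpinb5 had 509, 204.5, 485 and 460 CPM in untreated and 626, 587, 603 and 577 CPM in treated mouse skin, and all treated libraries lay above the untreated ones. Its log2 fold change of 0.53 (edgeR adjusted p 0.103, SE 0.259) was not called, but it was with the DESeq2 test (adjusted p 0.0171), with edgeR on DESeq2 size factors (0.0493) and without the filter (0.0444). Untreated replicate 2 was far below the other untreated libraries, and without it the log2 fold change was 0.39 (edgeR adjusted p 0.00204). Serpinb2, an inhibitor of urokinase-type plasminogen activator, had log2 fold changes of 0.13 in mouse and 0.10 in spiny mouse (edgeR adjusted p 0.733 and 0.647). Serpinb8, an inhibitor of furin, had -0.11 and 0.30 (edgeR adjusted p 0.477 and 0.0581). Its mouse fall was called with upper-quartile factors (-0.31, edgeR adjusted p 0.0295). Its spiny mouse rise was called with DESeq2 (adjusted p 0.0458) and without untreated replicate 3 or treated replicate 4 (edgeR, 0.0385 and 0.0337). The species difference of 0.42 (edgeR adjusted p 0.0786) was called with upper-quartile factors (0.57, 0.0107) and without mouse untreated replicate 2 (0.44, 0.0201). In spiny mouse Serpinb5 had a log2 fold change of 0.16 (edgeR adjusted p 0.213, SE 0.104).

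**Figure D1:**
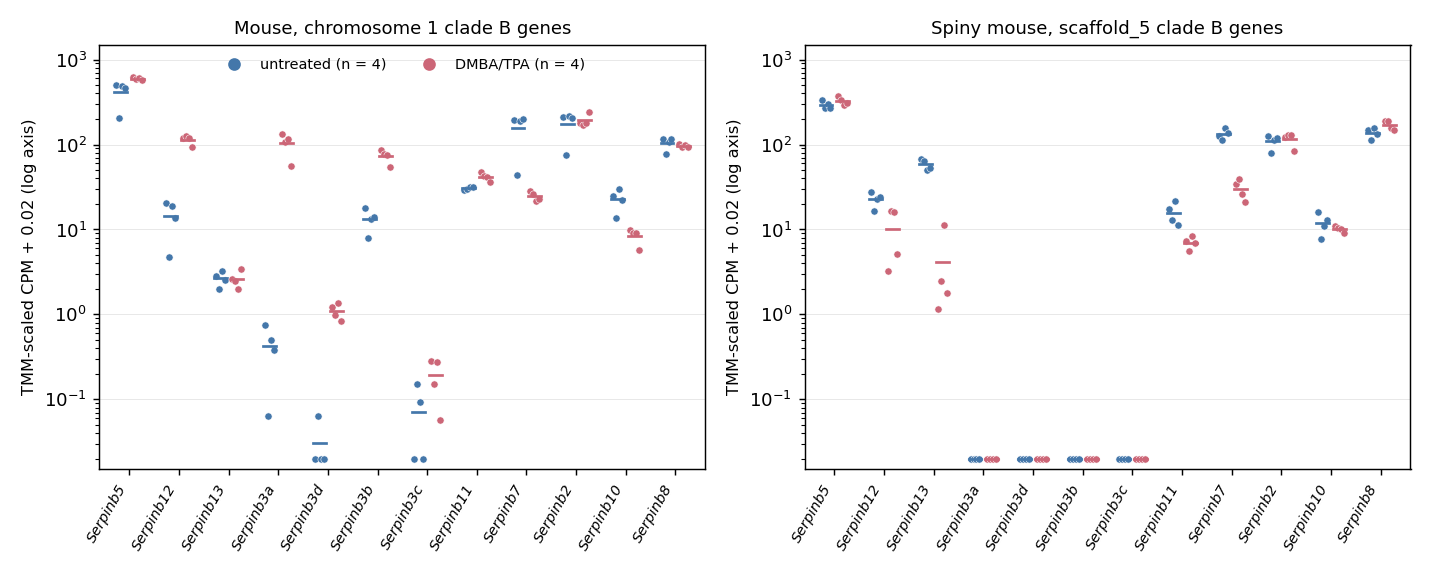
TMM-scaled CPM plus 0.02 on a log axis for the clade B genes of the cluster in each of 4 untreated (blue) and 4 DMBA/TPA (red) libraries, mouse at left and spiny mouse at right, with bars at the mean. Serpinb3a, Serpinb3b, Serpinb3d and Serpinb12 were higher in treated mouse skin, Serpinb7 was lower in both species and Serpinb13 in spiny mouse, and the 4 Serpinb3 genes of spiny mouse sit at 0 counts, with annotated exons that cover one another.

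**Figure D2:**
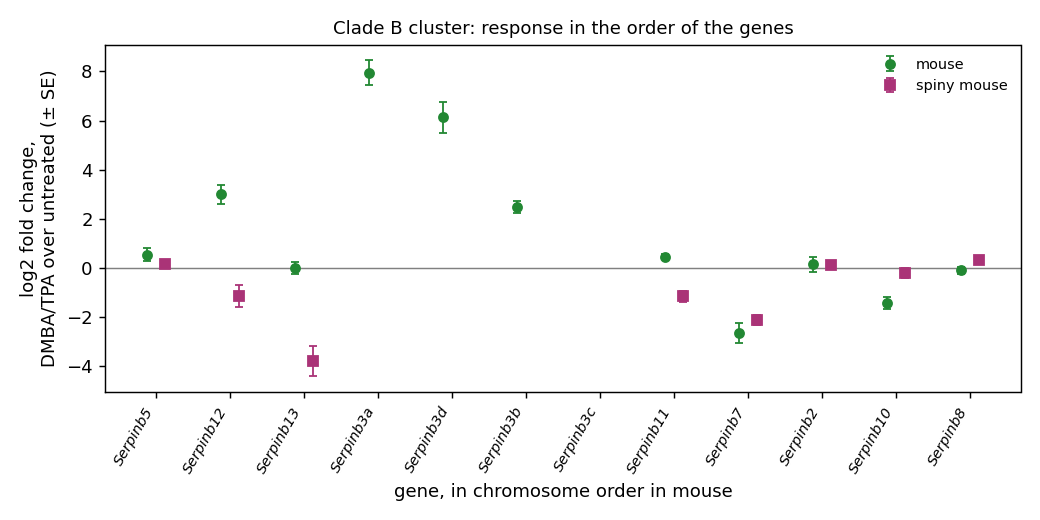
The log2 fold change (DMBA/TPA over untreated, with SE bars) of the same genes in their order along mouse chromosome 1, with mouse as green circles and spiny mouse as magenta squares. Rises and falls lie side by side along the cluster, from 7.95 for Serpinb3a to -2.66 for Serpinb7 in mouse, and Serpinb12, Serpinb13 and Serpinb11 show the widest gaps between the species.

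Promoter sequence was set beside this cluster because its members moved in opposite directions from neighbouring sites, and because TPA is known to act on genes through AP-1, whose classical site, the TPA response element, reads TGAGTCA and was searched on both strands. RefSeq promoters of the build GRCm38.p6, reaching from 250 bases before to 50 after a start, were found for 54 of 64 mouse symbols. That element stood in 5.2% of all 32851 promoters and in 2 of the 11 cluster genes with a promoter, Serpinb7 and Serpinb8. The looser letters TGANTCA (their own reverse complement, so 1 search covers both strands) stood in 7.81% of all promoters and in 7 of the 11 genes, since Serpinb5, Serpinb12, Serpinb11, Serpinb2 and Serpinb10 have A or T as the middle base. Among clade A genes 4 of 19 had TGANTCA, namely Serpina1a, Serpina1b, Serpina1c and Serpina1d, and all 4 hold the stricter element. Serpinb12 (higher) and Serpinb7 (lower) both have the looser letters at 45 bases before the start, while the promoters of Serpinb3a, Serpinb3b, Serpinb3c and Serpinb3d have none in this window. Members called higher had the looser letters in 2 of 8 genes with a promoter and members called lower in 2 of 15. A match is a description of letters, not a binding site. The 200 bases before the start are given for these 7 genes and, for contrast, Serpinb3a, 5′ to 3′ on the gene's strand, with matches to TGANTCA in capitals. For genes with several listed starts the first is shown.
Serpinb5 (chr1:106860975-106861174, plus strand): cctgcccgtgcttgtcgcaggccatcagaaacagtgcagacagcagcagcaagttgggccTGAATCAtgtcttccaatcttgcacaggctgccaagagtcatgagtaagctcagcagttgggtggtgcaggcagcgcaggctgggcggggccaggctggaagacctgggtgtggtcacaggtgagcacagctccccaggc
Serpinb12 (chr1:106934249-106934448, plus strand): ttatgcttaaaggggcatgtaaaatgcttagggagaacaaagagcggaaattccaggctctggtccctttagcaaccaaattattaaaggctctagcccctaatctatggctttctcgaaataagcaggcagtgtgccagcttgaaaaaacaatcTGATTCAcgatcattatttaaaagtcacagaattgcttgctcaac
Serpinb3a (chr1:107052304-107052503, minus strand): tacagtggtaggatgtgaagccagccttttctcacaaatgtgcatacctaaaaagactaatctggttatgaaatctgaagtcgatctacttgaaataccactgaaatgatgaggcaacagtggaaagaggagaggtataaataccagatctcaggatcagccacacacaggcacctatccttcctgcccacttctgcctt
Serpinb11 (chr1:107362114-107362313, plus strand): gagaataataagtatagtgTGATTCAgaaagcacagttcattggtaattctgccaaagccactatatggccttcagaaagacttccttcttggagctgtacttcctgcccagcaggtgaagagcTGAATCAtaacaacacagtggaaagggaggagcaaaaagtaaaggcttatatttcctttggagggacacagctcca
Serpinb7 (chr1:107422489-107422688, plus strand): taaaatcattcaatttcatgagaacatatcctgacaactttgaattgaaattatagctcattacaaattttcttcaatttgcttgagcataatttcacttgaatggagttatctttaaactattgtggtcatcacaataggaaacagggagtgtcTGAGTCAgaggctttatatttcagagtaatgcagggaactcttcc
Serpinb2 (chr1:107511223-107511422, plus strand): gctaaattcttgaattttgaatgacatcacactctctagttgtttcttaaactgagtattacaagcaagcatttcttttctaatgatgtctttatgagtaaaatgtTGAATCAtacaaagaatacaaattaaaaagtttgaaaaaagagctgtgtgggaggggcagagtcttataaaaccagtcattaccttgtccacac
Serpinb10 (chr1:107528803-107529002, plus strand): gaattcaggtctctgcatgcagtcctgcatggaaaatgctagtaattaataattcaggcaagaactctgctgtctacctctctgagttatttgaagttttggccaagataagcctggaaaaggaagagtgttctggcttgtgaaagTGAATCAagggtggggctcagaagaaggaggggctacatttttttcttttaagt
Serpinb8 (chr1:107589806-107590005, plus strand): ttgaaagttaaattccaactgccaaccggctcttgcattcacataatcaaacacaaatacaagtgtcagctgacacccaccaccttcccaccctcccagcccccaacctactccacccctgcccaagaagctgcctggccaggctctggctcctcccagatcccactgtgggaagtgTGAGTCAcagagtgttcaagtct
Serpinb11 holds 2 matches in this stretch, at 181 and 76 bases before its start, and Serpinb8 has a second one past its start. The second listed start of Serpinb12 has none. Between the Serpinb3 genes the promoters of Serpinb3b and Serpinb3c were 90.0% identical and those of Serpinb3a and Serpinb3b 79.3%, while that of Serpinb3d matched the others at 46.5% to 47.4%.

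The clade B genes of mouse chromosome 13 were lower or without a call. Serpinb6a (ENSMUSG00000060147, chromosome 13, 34101901 to 34186777, minus strand), an intracellular inhibitor of cathepsin G-like proteases and among the most abundant members, had 465, 322, 494 and 329.9 CPM in untreated and 139, 137, 192 and 198 CPM in treated skin. The groups did not overlap, and the log2 fold change was -1.27 (edgeR adjusted p 0.000724, SE 0.205). Its exons overlap Nqo2, Ripk1 and 1110046J04Rik on the opposite strand, and strand was not used in counting. Serpinb6e fell from 8.63, 1.05, 22.02 and 14.8 to 0.945, 1.36, 0.909 and 1.86 CPM, a log2 fold change of -3.18 (edgeR adjusted p 0.0048, SE 0.735), although untreated replicate 2 lay within the treated range. Without untreated replicate 3 it was -2.59. Serpinb1c, close to the neutrophil elastase inhibitor Serpinb1a, fell from 1.71, 0.7455, 1.87 and 0.729 to 0.2100, 0.2198, 0.182 and 0.483 CPM, a log2 fold change of -2.18 (edgeR adjusted p 0.00365, SE 0.475). Serpinb1a itself had 26.8 ± 11.4 CPM without and 28.4 ± 3.84 CPM with treatment (SD, n = 4) and Serpinb9, the inhibitor of granzyme B, 8.38 ± 2.898 CPM without and 5.47 ± 1.08 CPM with treatment, and neither was called (edgeR adjusted p 0.808 and 0.0737). Without untreated replicate 2 Serpinb9 was called at -0.72 (edgeR adjusted p 0.00428). Serpinb6c and Serpinb6d had their lowest untreated values in replicate 2, with 17.2, 1.75, 18.7 and 14.8 CPM and 7.49, 0.307, 4.87 and 1.09 CPM, and neither was called. Without that library Serpinb6d was called at -1.13 (edgeR adjusted p 0.0440). Serpinb6b and Serpinb9b were not called, Serpinb1b was not tested, and the other 6 mouse Serpinb9 genes had at most 0.011 CPM in a group mean. In spiny mouse the tested clade B genes are the 8 of scaffold_5 already given, and no Serpinb6 gene was analysed there. Serpinb9 of spiny mouse, with 44.9% of its exonic bases to itself, was below the filter at 0.06804, 0.119, 0.136 and 0.137 CPM untreated and 0.273, 0.286, 0.293 and 0.6397 CPM treated.

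In clade A, 3 of 13 tested mouse members were higher (23.1%, against 25.9% of all genes), 7 lower (53.8%, against 35.3%) and 3 not called. Serpina9, known as centerin from germinal centre B cells, rose in both species. Mouse libraries (chromosome 12, 103961002 to 103980014, minus strand) held 1.02, 2.105, 0.476 and 1.275 CPM untreated and 38.4, 35.4, 35.1 and 30.4 CPM treated, a log2 fold change of 4.85 (edgeR adjusted p 1.19e-05, SE 0.345). Spiny mouse libraries held 8.78, 9.56, 1.804 and 5.07 and 14.65, 28.6, 20.2 and 22.3 CPM, a log2 fold change of 1.77 (edgeR adjusted p 0.00691, SE 0.4300). The groups were apart in both species, and the difference was -3.09 (edgeR adjusted p 0.000581, SE 0.588). The adjacent Serpina11, a secreted member of little-known function, was low in mouse at 0.122, 0.132, 0.0366 and 0.137 CPM and rose to 0.8401, 0.879, 1.31 and 1.26 CPM, a log2 fold change of 3.31 (edgeR adjusted p 0.00016, SE 0.404). It keeps 59.2% of its exonic bases, since it overlaps the annotated gene Gm28577. In spiny mouse Serpina11 had 3.78, 2.54, 5.41 and 4.02 CPM untreated and 4.28, 3.93, 4.17 and 4.07 CPM treated, with a log2 fold change of 0.06 (edgeR adjusted p 0.825, SE 0.209), and the difference was -3.26 (edgeR adjusted p 2.87e-05, SE 0.432).

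Vaspin (Serpina12), an adipokine that inhibits the protease Klk7, fell in both species. In mouse it had 100.1, 29.1, 82.4 and 114 CPM untreated and 39.9, 35.2, 19.9 and 28.25 CPM treated, a log2 fold change of -1.40 (edgeR adjusted p 0.0105, SE 0.3800), with untreated replicate 2 inside the treated range. In spiny mouse it had 252, 239.6, 343 and 355 CPM and then 131, 131, 107.7 and 126 CPM, with no overlap and a log2 fold change of -1.26 (edgeR adjusted p 0.000115, SE 0.141). The species difference of 0.14 (edgeR adjusted p 0.809, SE 0.432) was not called. Adipocyte markers summed to between 193.1 and 833.9 CPM in untreated and 220.0 to 383.6 CPM in treated mouse skin, and to between 1152 and 1304 and between 575.5 and 848.8 CPM in spiny mouse. In spiny mouse the markers and Serpina12 were both lower in every treated library than in any untreated one. Its untreated replicates 1 to 4 held marker sums of 1270, 1304, 1152 and 1176 CPM. The highest of these met the lowest untreated level of the gene, 239.6 CPM in replicate 2. In mouse the marker sums overlapped between groups. Untreated replicate 2 was the lowest mouse library for the marker sum and the lowest untreated one for the gene. The part of adipocytes in the Serpina12 level was not tested. The Serpina12 target Klk7 rose in both species. Its mouse level was 344 ± 167 CPM before and 1564 ± 61.9 CPM after, and its spiny mouse level 587 ± 129.8 and 1457 ± 219 CPM (SD, n = 4).

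The Serpina3 genes, the many mouse relatives of human antichymotrypsin, were counted under 11 symbols. Of these 9 were tested, 6 were lower (35.3% of all genes were), Serpina3n was higher and Serpina3f and Serpina3m were not called. Serpina3h (ENSMUSG00000121484, annotated as a long noncoding RNA, while the other locus of that symbol is annotated as a transcribed pseudogene) had 51.9, 54.6, 42.2 and 45.7 CPM in untreated and 5.09, 3.82, 4.84 and 4.34 CPM in treated skin, a fall of 3.42 on the log2 scale (SE 0.137, edgeR adjusted p 1.53e-06) without overlap of groups. Serpina3b went from 149, 84.9, 194 and 123 to 21.95, 11.7, 8.15 and 23.8 CPM, with a log2 fold change of -3.07 (edgeR adjusted p 0.000176, SE 0.382). Serpina3j went from 137, 58.1, 189 and 106 to 39.2, 38.8, 35.2 and 45.3 CPM, with a log2 fold change of -1.63 (edgeR adjusted p 0.00155, SE 0.301). Neither overlapped between groups.

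The other called members of this group were less abundant. Serpina3i had 14.98, 12.2, 10.4 and 13.3 CPM untreated and 2.89, 1.85, 2.55 and 3.04 CPM treated (log2 fold change -2.30, edgeR adjusted p 2.47e-05). For Serpina3g, which keeps 44.4% of its exonic bases to itself, the values were 5.25, 3.42, 4.87 and 6.29 CPM and 1.155, 1.58, 1.27 and 1.93 CPM (log2 fold change -1.73, edgeR adjusted p 0.000454). Serpina3c had 27.6, 6.75, 27.15 and 30.3 CPM untreated, with replicate 2 far below the others, and 6.67, 10.5, 7.78 and 7.65 CPM treated (log2 fold change -1.49, edgeR adjusted p 0.00971). Serpina3n, an acute-phase protein that inhibits leukocyte proteases, stood against these with 70.2, 18.8, 65.8 and 75.8 CPM untreated and 144, 137, 164 and 163 CPM treated. All treated libraries were above the untreated ones, and the log2 fold change was 1.40 (edgeR adjusted p 0.00785, SE 0.357). The spiny mouse table has 1 gene of this group, Serpina3j, which had too few counts to be tested.

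**Figure D3:**
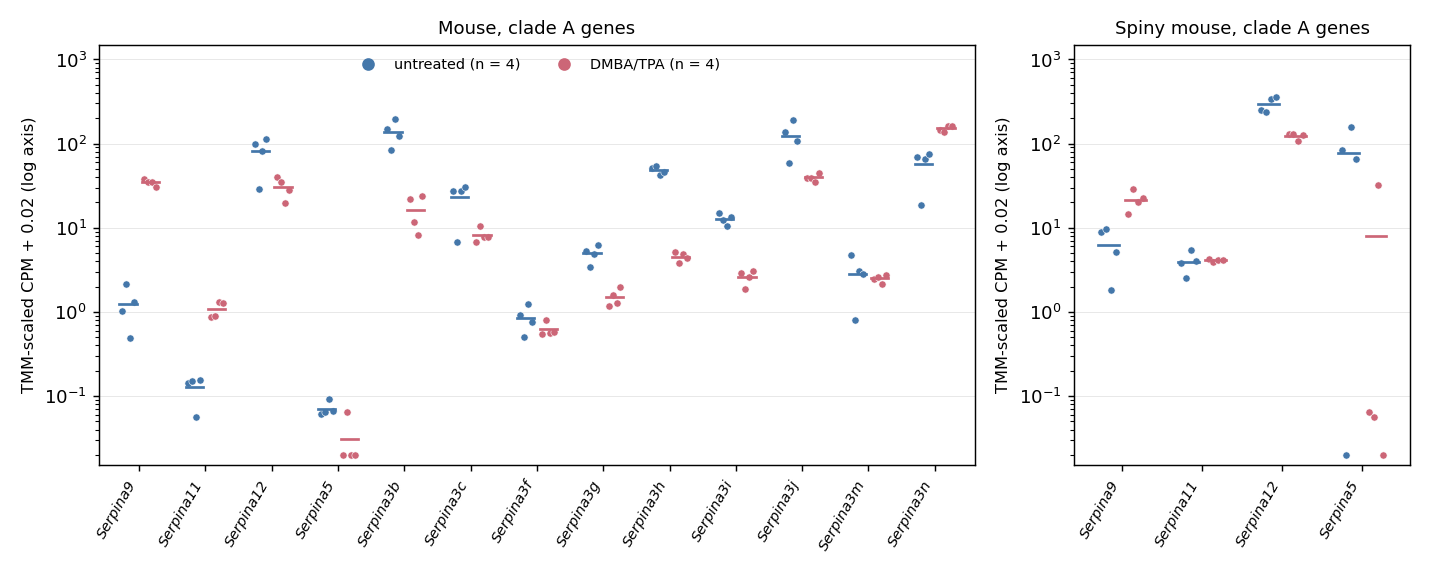
TMM-scaled CPM plus 0.02 on a log axis for clade A genes in each of 4 untreated (blue) and 4 DMBA/TPA (red) libraries, mouse at left and spiny mouse at right, with bars at the mean. Serpina9 was higher in treated skin of both species, Serpina3n was the 1 called Serpina3 gene above its untreated libraries, and spiny mouse Serpina5 was either near 0 or at 32.0 CPM and more.

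Serpina5, the inhibitor of activated protein C, was either high or near 0 by library in spiny mouse. Untreated libraries held 84.5, 0, 157.5 and 66.2 CPM and treated ones 0.0455, 0.0357, 32.02 and 0 CPM. Untreated replicates 1, 3 and 4 and treated replicate 3 were high, while the other 4 libraries held at most 0.0455 CPM, so the groups overlap. The log2 fold change of -3.24 (edgeR adjusted p 0.149, SE 1.79) was not called. With a block for replicate number the fall was called (edgeR adjusted p 0.0289). Without treated replicate 3 the fall was called (edgeR adjusted p 0.00573), but no fold is given since the treated libraries left held at most 0.0455 CPM. In mouse it stood at the floor, with 0.05085 ± 0.0151 CPM without and 0.01099 ± 0.02198 CPM with treatment.

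Liver-type clade A genes were then read library by library in mouse. Serpina1a to Serpina1e encode alpha-1-antitrypsin, the main plasma inhibitor of neutrophil elastase. Untreated replicate 1 held 8.55, 18.5, 5.42, 13.9 and 21.3 CPM of Serpina1a, Serpina1b, Serpina1c, Serpina1d and Serpina1e, and no other untreated library passed 0.911 CPM for any of them. Serpina3k was at 37.8 CPM in replicate 1 and at most 0.733 CPM in the other untreated libraries. The hormone carriers Serpina6 (1.79 CPM) and Serpina7 (1.02 CPM) had counts in no other untreated mouse library. These genes were thus high in the library with the high hepatocyte markers, and none but Serpina1e passed the filter for testing. Untreated replicate 4, with a marker sum of 207.3 CPM, held 0.911, 0.0911, 0.0911, 0.273 and 0.182 CPM of Serpina1a to Serpina1e. Replicates 2 and 3, with sums of 24.9 and 49.5 CPM, held 0.351 and 0.403 CPM of Serpina1a and at most 0.614 CPM of the other copies.

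In treated skin Serpina1e stood above its copies. Untreated libraries held 21.25, 0.614, 0.183 and 0.182 CPM and treated ones 9.71, 11.25, 10.2 and 10.7 CPM, whereas Serpina1a to Serpina1d had at most 0.440 CPM in any treated library. Over all libraries Serpina1e was not called, with a log2 fold change of 0.91 (edgeR adjusted p 0.52, SE 1.18). Without untreated replicate 1 its log2 fold change was 5.01 (edgeR adjusted p 5.91e-05). Of the 15 hepatocyte markers, Alb was at most at 0.727 CPM in treated skin, whereas Cps1 stood at 8.82, 8.18, 7.46 and 9.28 CPM there, against 2.24, 0.806 and 0.273 CPM in untreated replicates 2 to 4. Hpx was likewise at 0.659 to 1.42 CPM in treated skin and 0.256 to 0.482 CPM in those 3 libraries. The 15 markers as a set went the other way. They summed to between 17.15 and 20.63 CPM in treated skin and between 24.87 and 930.5 CPM in untreated skin. Of the 5 markers tested, 0 were called higher and 3 lower (25.9% and 35.3% of all genes were). The part of hepatocyte-type RNA in the level of Serpina1e was not tested. Serpina1e shares at least 96.3% of its coding bases with each other copy, so the assignment of pairs among the copies is uncertain.

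Serpins of the coagulation system were also highest in that library. Antithrombin (Serpinc1) had 13.2, 2.54, 0.989 and 1.002 CPM in untreated and 0.4200, 0.791, 0.727 and 0.5198 CPM in treated mouse skin, and the groups did not overlap. Its log2 fold change of -2.83 (edgeR adjusted p 0.0176, SE 0.859) was -1.27 without untreated replicate 1 (edgeR adjusted p 0.0343) and -0.58 without untreated replicates 1 and 2 (edgeR adjusted p 0.168), and the call was also lost without treated replicate 1 (adjusted p 0.0501). Heparin cofactor (Serpind1), a thrombin inhibitor, had 5.94, 2.500, 1.39 and 1.96 and 0.578, 1.14, 1.35 and 1.11 CPM, a log2 fold change of -1.48 (edgeR adjusted p 0.022, SE 0.472). Without untreated replicate 1 it was -0.87 and not called (edgeR adjusted p 0.0600), and leaving out treated replicate 1, 2 or 4 ended the call as well. The plasmin inhibitor Serpinf2 had 5.62, 0.702, 0.733 and 0.638 and 0.2100, 0.571, 0.364 and 0.297 CPM, a log2 fold change of -2.39 (edgeR adjusted p 0.0278, SE 0.808). Without untreated replicate 1 it was -0.91 and not called (edgeR adjusted p 0.0708), nor was it without treated replicate 1, 3 or 4. In spiny mouse Serpinc1 had 2.86, 1.785, 1.19 and 1.23 and 1.55, 2.32, 3.001 and 2.06 CPM and Serpind1 0.7825, 0.595, 0.681 and 0.777 and 0.364, 0.5002, 0.512 and 0.8225 CPM, and neither was called. The species difference of Serpinc1 was 3.17 (edgeR adjusted p 0.015, SE 0.976), and 0.91 without mouse untreated replicates 1 and 2 (edgeR adjusted p 0.145). A block for replicate number ended the mouse calls of Serpinc1, Serpind1 and Serpinf2 (edgeR adjusted p 0.0603, 0.0799 and 0.0865). It also ended the call of this species difference (edgeR adjusted p 0.0576).

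**Figure D4:**
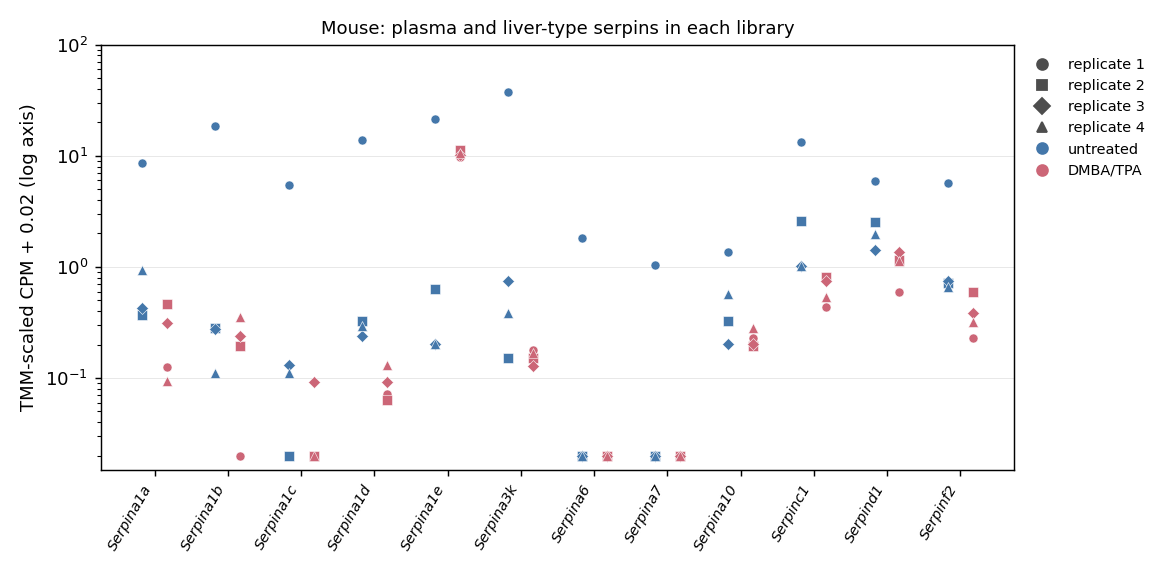
TMM-scaled CPM plus 0.02 on a log axis for plasma and liver-type serpins in each mouse library, with blue for untreated, red for DMBA/TPA and a symbol for each replicate number. Untreated replicate 1 (blue circles) is the highest untreated library for all 12 genes, and Serpina1e is the 1 gene near 10 CPM in all 4 treated libraries (9.71 to 11.3 CPM).

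Protease nexin (Serpine2), which inhibits thrombin and plasminogen activators at cell surfaces, fell in mouse from 51.2, 40.0, 47.2 and 42.0 to 26.8, 29.1, 30.8 and 36.9 CPM, a log2 fold change of -0.54 (edgeR adjusted p 0.0048, SE 0.126) without overlap. In spiny mouse it had 55.7, 78.6, 69.8 and 71.9 and 70.8, 83.7, 78.6 and 84.7 CPM and was not called, with a log2 fold change of 0.20 (edgeR adjusted p 0.131, SE 0.106). The difference was 0.75 (edgeR adjusted p 0.00217, SE 0.169). Of the proteases it acts on, the urokinase gene Plau had log2 fold changes of 0.17 in mouse and 0.37 in spiny mouse, and its receptor gene Plaur 0.20 and 1.88, of which Plaur in spiny mouse was called (edgeR adjusted p 2.52e-05).

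Neuroserpin (Serpini1), an inhibitor of tissue plasminogen activator, moved in opposite directions at low levels. In mouse it rose from 0.651, 0.7455, 0.843 and 0.592 to 1.155, 1.89, 1.42 and 1.34 CPM, a log2 fold change of 1.03 (edgeR adjusted p 0.00808, SE 0.263). In spiny mouse it fell from 3.27, 2.697, 2.45 and 3.66 to 0.819, 1.29, 1.46 and 0.731 CPM, a log2 fold change of -1.47 (edgeR adjusted p 0.00116, SE 0.254). Neither comparison had overlapping groups, and the difference was -2.49 (edgeR adjusted p 4.44e-05, SE 0.348).

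Among the other secreted members, the complement regulator Serping1 (C1 inhibitor) had 310.4, 101, 245 and 212 CPM in untreated and 98.4, 145, 159 and 150.1 CPM in treated mouse skin, and 90.3, 98.4, 80.7 and 100 and 83.6, 132, 166 and 158 CPM in spiny mouse. The log2 fold change was -0.65 (edgeR adjusted p 0.0885, SE 0.304) in mouse, not called, and 0.55 (edgeR adjusted p 0.0341, SE 0.189) in spiny mouse, where groups overlapped and leaving out 1 library ended the call in 7 of 8 cases (adjusted p 0.0523 to 0.0851). Without mouse untreated replicate 2 the mouse value was -0.80 (edgeR adjusted p 0.00106). The difference was 1.20 (edgeR adjusted p 0.0184, SE 0.384). With a block for replicate number neither the spiny mouse change nor the difference was called (edgeR adjusted p 0.0617 and 0.0677). Serpinf1, the antiangiogenic factor of pigment epithelium, fell in spiny mouse from 149, 156, 125.5 and 141 to 65.55, 79.6, 72.7 and 99.01 CPM, a log2 fold change of -0.85 (edgeR adjusted p 0.000481, SE 0.125). In mouse it had -0.68 (edgeR adjusted p 0.0758), and -0.83 without untreated replicate 2 (edgeR adjusted p 0.000398). Serpinh1, which folds collagen in the endoplasmic reticulum, was not called in either species, at 209 ± 75.3 CPM without and 248.5 ± 22.05 CPM with treatment in mouse and 191 ± 27.2 CPM without and 236 ± 33.55 CPM with treatment in spiny mouse (SD, n = 4). In spiny mouse Serpinh1 had a log2 fold change of 0.31 (edgeR adjusted p 0.0641). This rise was called with the DESeq2 test (adjusted p 0.0399) and without untreated replicate 2 or treated replicate 3 (edgeR adjusted p 0.0158 and 0.0272). Its clients Col1a1 and Col3a1 had log2 fold changes of -0.58 and -0.10 in mouse, not called, and -1.26 and -1.50 in spiny mouse, both called (edgeR adjusted p 0.00148 and 0.000229).

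**Figure D5:**
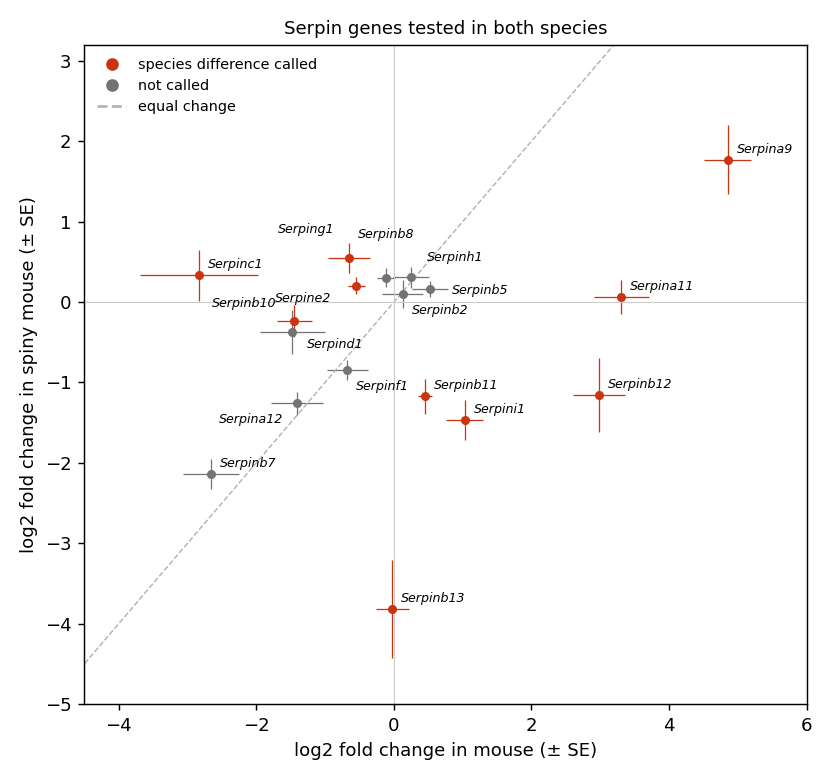
The log2 fold change (DMBA/TPA over untreated) in spiny mouse against that in mouse for Serpin genes tested in both species (1 is not shown), with SE bars, red where the species difference was called and grey where not, and a dashed line of equal change. Serpinb7, Serpina12 and Serpinf1 lie near the line, Serpinb12, Serpinb13, Serpina9, Serpina11 and Serpini1 lie below it and Serpinc1 above it.

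Proteases, receptors and clients of serpins were listed as 49 genes. In mouse 41 were tested, 16 were higher, 5 lower and 20 not called (25.9% and 35.3% of all genes were higher and lower), with a median log2 fold change of 0.17 against -0.15 over all genes. In spiny mouse 40 were tested, 23 were higher, 6 lower and 11 not called (28.2% and 26.9% of all genes were higher and lower), with a median of 0.52 against -0.01. Besides Klk7, epidermal kallikreins that rose in both species included Klk6 (4.93 in mouse and 4.72 in spiny mouse) and Klk13 (6.54 and 4.72). Lysosomal cathepsins, which include targets of Serpinb13, were higher for Ctsl (log2 fold change 2.54 and 0.97) and Ctsb (1.07 and 0.36) in both species. Ctss and Ctsk were higher in spiny mouse (1.07 and 1.52) and not called in mouse (-0.96 and -0.66, edgeR adjusted p 0.0508 and 0.118). Granzyme B (Gzmb), the target of Serpinb9, was higher in spiny mouse, at 3.07 (edgeR adjusted p 0.00199, SE 0.588), and not called in mouse, at 0.23 (edgeR adjusted p 0.664, SE 0.445). The neutrophil proteases Elane and Ctsg had at most 0.327 CPM in any group mean and were not tested in either species.

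In mouse the 16 tested members without a call had log2 fold changes from -0.83 to 0.91, and the 23 members not tested had at most 9.75 CPM in a group mean, that of Serpina3k in untreated skin. In spiny mouse the 12 tested members without a call had log2 fold changes from -3.24 (Serpina5) to 0.33 (Serpinc1), and the 25 members not tested had at most 0.373 CPM in a group mean.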

How the data were processed

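Raw counts of read pairs per gene, as the authors deposited them, were used for 4 untreated and 4 DMBA/TPA skin samples of each species. Per the file headers they were made with featureCounts 2.0.3, counting only pairs with both ends mapped, without strand and without pairs that match several genes or places. The submitters' processing notes name Trim Galore, HISAT2 and the build GRCm39. Mouse IDs were mapped to symbols with the annotation, and spiny mouse IDs are symbols.

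Each species was filtered with filterByExpr, scaled with TMM and fitted with edgeR 4.0.16 (R 4.3.3, glmQLFit and glmQLFTest), with p-values adjusted over all genes by the Benjamini-Hochberg method and a threshold of 0.05. Species differences were interaction terms over symbols tested in both tables. SEs were derived from the log2 fold change and F. The script was tested on simulated data. Alternatives were the DESeq2 1.42.0 test, its size factors, upper-quartile factors, no filter on low counts, a replicate block and leaving out each library. The labels do not say whether samples with the same replicate number were paired. The mean correlation of same-numbered deviations was 0.00934 in mouse, against -0.00279 for different numbers. In spiny mouse it was -0.385, against 0.129. Such correlations cannot show whether samples were paired, and the block was kept as an alternative. No pair of libraries agreed within sampling noise (chi-square per degree of freedom 11.35 to 165.8).

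Members with per-sample values were called members that moved by at least 1 on the log2 scale and a group mean of at least 1 CPM, called species differences of at least 1, and the liver-type genes. Others with per-sample values (Serpinb11 and Serpine2 in mouse, Serpinb5, Serping1, Serpinf1, Serpina5, Serpinb3d, Serpinb6c, Serpinb6d and Serpinb9) were added after their values were seen. Members and lists were chosen with earlier results of these data known. Promoters, from RefSeq on GRCm38.p6, were searched with Biopython 1.88. The values of 1 member, which the counts of members include, are not reported here. Figures used matplotlib 3.10.9.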

Additional observations from a re-analysis of the deposited data

Results flagged for a closer look

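A library was counted as far from the other 3 of its group when its gap to the nearest one, over the range of the group passed Dixon's 95% critical value. This held for 17 of 126 groups examined. The rate of about 1 in 20 that holds for independent, normally distributed values is no reference here. The values used were untransformed CPM, and the genes share the same libraries. The share over all genes was not determined, so the count cannot be read as particular to Serpin genes. Untreated mouse replicate 2 stood apart over all genes as well. Chi-square per degree of freedom was 132.9 to 165.8 in pairs with it and 21.92 to 25.6 in the other untreated mouse pairs. Untreated spiny mouse libraries split as well, with 85.11 to 154.7 between replicates 1 or 2 and replicates 3 or 4. It was 34.62 between spiny mouse replicates 1 and 2 and 22.59 between replicates 3 and 4. In replicate 1 of untreated mouse skin, Serpina1e (21.25 CPM, with 0.182 to 0.614 in the others), Serpinc1 (13.2 CPM, with 0.989 to 2.54 in the others) and Serpinf2 (5.62 CPM, with 0.638 to 0.733 in the others) were far from the rest. In replicate 2 of untreated mouse skin, Serpina3c (6.75 CPM, with 27.15 to 30.3 in the others), Serpinb2 (74.7 CPM, with 206.4 to 214.4 in the others), Serpinb5 (204.5 CPM, with 460 to 509 in the others), Serpinb7 (43.7 CPM, with 189 to 198 in the others) and Serpinb3d (0.0439 CPM, with 0 in the others) were far from the rest. For Serpinb3d the group held 1 count in all, so the measure is at its maximum whichever library held it, and it says nothing about that library. In replicate 3 of untreated mouse skin, Serpina11 (0.0366 CPM, with 0.122 to 0.137 in the others) was far from the rest. In replicate 1 of treated mouse skin, Serpinf1 (60.49 CPM, with 82.5 to 85.5 in the others) and Serpinh1 (215.5 CPM, with 257 to 261 in the others) were far from the rest. In replicate 2 of treated mouse skin, Serpina3f (0.791 CPM, with 0.525 to 0.557 in the others) was far from the rest. In replicate 4 of treated mouse skin, Serpinb10 (5.68 CPM, with 9.055 to 9.71 in the others) and Serpinb1c (0.483 CPM, with 0.182 to 0.2198 in the others) were far from the rest. In replicate 3 of treated spiny mouse skin, Serpina5 (32.0 CPM, with 0 to 0.0455 in the others) and Serpinb13 (11.1 CPM, with 1.14 to 2.465 in the others) were far from the rest. In replicate 4 of treated spiny mouse skin, Serpinb2 (84.0 CPM, with 123.1 to 130.5 in the others) was far from the rest. Replicates 1 and 2 of untreated mouse skin are the libraries with high hepatocyte and hair follicle markers, and the part of those markers in these values was not tested.

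The treatment effect differed between the species by the interaction test of edgeR for 10 members. Given as spiny mouse minus mouse on the log2 scale, the difference was 1.21 for Serpinb10, 3.17 for Serpinc1, 0.75 for Serpine2 and 1.20 for Serping1. It was -3.26 for Serpina11, -3.09 for Serpina9, -1.62 for Serpinb11, -4.14 for Serpinb12, -3.79 for Serpinb13 and -2.49 for Serpini1.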

How the results depend on the processing

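The 26 mouse, 9 spiny mouse and 10 species difference calls were each recomputed under the alternatives. In spiny mouse 5 members were higher with the DESeq2 test and 6 without the filter on low counts, against 3. With the replicate block, 2 members had a log2 value larger in spiny mouse, against 4, and the block called 23 members in mouse and 11 in spiny mouse. Over all genes the block called 11246 in mouse, 7418 in spiny mouse and 5723 species differences, against 12085, 8180 and 6290. With it Serpinc1, Serpind1 and Serpinf2 in mouse (adjusted p 0.0603, 0.0799 and 0.0865), Serping1 in spiny mouse (0.0617) and the species differences of Serpinc1 and Serping1 (0.0576 and 0.0677) were not called, while Serpina5, Serpinh1 and Serpine2 in spiny mouse were (0.0289, 0.0472 and 0.0398). Upper-quartile factors moved the median log2 fold change of all mouse genes by -0.20, and 30.5% of all mouse calls were then higher, against 42.4%. Among the members reported, signs turned only for log2 values that were not called. In mouse these were Serpinb13 (0.077 with the DESeq2 test, 0.080 with its size factors, 0.127 without the filter), Serpinb6c (0.046, 0.042 and 0.071 in that order, and 0.197 with the block), Serpinb8 (0.032 without the filter), Serpinb1a (-0.113 with upper-quartile factors) and Serpinb2 (-0.055 with those factors, -0.027 without untreated replicates 1 and 2). For the species difference they were Serpinh1 (-0.055, -0.055 and -0.077 with the DESeq2 test, its size factors and no filter, and -0.027 with the block) and Serpinb2 (0.115 with upper-quartile factors, 0.126 without mouse untreated replicates 1 and 2). Leaving out 1 library turned the sign within these ranges in mouse: Serpinb13 -0.155 to 0.148, Serpinb2 -0.037 to 0.306, Serpinb1a -0.082 to 0.402, Serpinb9b -0.731 to 0.0028, Serpinb6c -0.351 to 0.228 and Serpina3m -0.408 to 0.176. In spiny mouse the ranges were -0.101 to 0.255 for Serpina11 and -0.025 to 0.240 for Serpinb2. For the difference they were -0.068 to 0.334 for Serpina12, -0.207 to 0.136 for Serpinb2 and -0.156 to 0.198 for Serpinh1. The cause of these changes was not tested.

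The samples differ in cell makeup, and 2 of 4 untreated mouse libraries stood apart. The untreated spiny mouse libraries split too, with replicates 1 and 2 apart from replicates 3 and 4. Members under 0.102 to 0.158 CPM in both groups lie below 3 counts per library, where a difference was not detectable at this depth. Overlapping annotation leaves most spiny mouse copies of the Serpinb1, Serpinb3, Serpina1 and Serpinb9 families without a usable level.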
